A study of Mus musculus with 6 samples.

Results

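The mitochondrial genome transcripts were taken as every gene of the deposited table whose symbol begins with mt-, which gave 37 of 55421 genes. They comprised 2 ribosomal RNAs, 13 messenger RNAs and 22 transfer RNAs, the full known gene set of the mouse mitochondrial DNA. RNA was sequenced from germinal center B cells, which proliferate, mutate their antibody genes and compete for antigen. The 3 SFR KO libraries came from mice with a deletion on chromosome 1 that runs from within Cd244 to within Slamf6 and removes the SLAM family receptor genes between them, and the 3 wildtype libraries came from mice without it. All mice were C57BL/6 and carried the AID-GFP reporter, in which green fluorescent protein marks cells that express the mutator enzyme AID. All were immunised with NP(18)OVA in alum, and GFP+ splenocytes were sorted on day 9. The labels give no age and do not say whether every library comes from its own mouse, so the p-values rest only on how far these libraries scatter.

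The sorted cells carried germinal center markers. All 10 listed markers had reads, and their summed level ran from 326828 to 339425 normalized reads in SFR KO libraries and from 319133 to 323964 in wildtype libraries. A normalized read is a read count divided by the library's size factor. Each library held 28269310 to 33053024 reads assigned to genes, of which 695749 to 809113 were mitochondrial in SFR KO libraries and 465321 to 644713 in wildtype libraries. Each of the deleted genes had at most 14.05 normalized reads in any SFR KO library.

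Mitochondrial DNA is a small circle that is transcribed from both strands into long precursors, which are cut at transfer RNAs into separate messengers and ribosomal RNAs. Its messengers encode core subunits of the respiratory chain and of ATP synthase, and all other proteins of the organelle, including its RNA polymerase, come from nuclear genes. Mitochondrial activity is known to change as B cells move through the germinal center reaction.

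The mitochondrial genome gave a larger share of reads in the SFR KO libraries. It took 2.47%, 2.46% and 2.45% of the reads assigned to genes in SFR KO 1, 2 and 3, against 1.51%, 2.12% and 1.53% in wildtype 1, 2 and 3. The SFR KO libraries lay within a narrow band above every wildtype library, and wildtype 2 stood between the others and the SFR KO libraries. The mean share was 2.46% ± 0.0112 in SFR KO and 1.72% ± 0.345 in wildtype libraries (SD, n = 3 each), a ratio of 1.43. A two-sided exact permutation test of the difference gave p = 0.1, the smallest that 3 against 3 libraries allow. In bulk RNA, fewer cells of a type and less RNA per cell cannot be told apart.

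**Figure D1:**
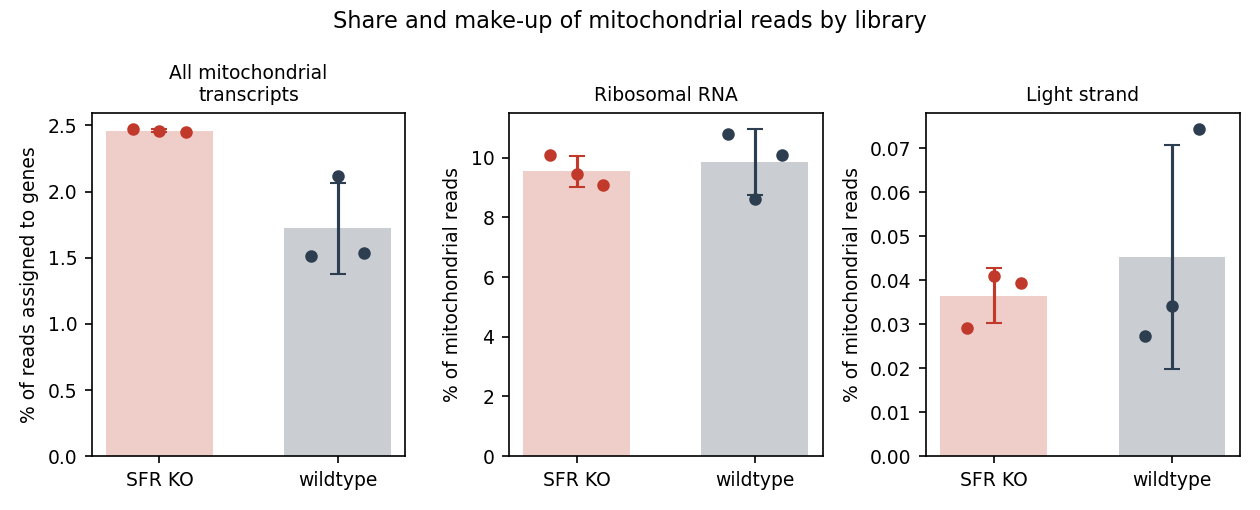
Bars give the mean and SD and points the libraries, for SFR KO (red) and wildtype (dark). The left panel shows the mitochondrial share of all assigned reads, the middle and right panels the ribosomal RNA and light strand shares of mitochondrial reads, all in percent. All 3 SFR KO libraries lie at 2.45% to 2.47% in the left panel, above the highest wildtype library at 2.12%, while the groups overlap in the other panels.

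Other marker lists were summed in each library beside this share. Nuclear-retained RNAs, a list of 5 in which all had reads, summed to 6072 to 9007 normalized reads in SFR KO and 4392 to 6046 in wildtype libraries. Malat1, a long RNA that stays in the nucleus and made up most of that sum, had 7637, 5142 and 4895 normalized reads in SFR KO 1, 2 and 3 and 3540, 5042 and 3993 in wildtype 1, 2 and 3. Its groups overlapped, while those of the list's sum did not. Wildtype 2 was thus the highest wildtype library for Malat1 as well as for the mitochondrial share. All 8 T cell markers had reads, and they summed to 4761 to 6936 in SFR KO and 4332 to 4646 in wildtype libraries. All 7 plasma cell markers had reads, with sums of 34246 to 35143 in SFR KO and 31331 to 32000.4 in wildtype libraries. The T cell and plasma cell sums, like that of the germinal center markers above, were thus higher in every SFR KO library than in any wildtype library. The 6 resting B cell markers, all with reads, summed to 8503 to 16386 in SFR KO and 13571 to 17602 in wildtype libraries. Their part in the mitochondrial difference was not tested.

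The resting B cell sums and those of the remaining lists overlapped between the groups. SFR KO 1 stood apart in the resting B cell sum, at 16386 against 8516 and 8503 in SFR KO 2 and 3. The 8 apoptosis and dissociation stress genes, all with reads, summed to 3851 to 4564 normalized reads in SFR KO and 4142 to 5059 in wildtype libraries. The 8 myeloid markers summed to 815.6 to 2427 in SFR KO and 1103 to 5037 in wildtype libraries, and the 6 erythroid markers to 1560.1 to 4225 in SFR KO and 1435 to 7886 in wildtype libraries. The 3 platelet markers summed to 57.1 to 86.7 in SFR KO and 62.6 to 105.9 in wildtype libraries, and the 3 NK cell markers to 26.2 to 56.2 in SFR KO and 40.0 to 81.8 in wildtype libraries. No marker of these lists was at 0 over all libraries. Wildtype 1 had the highest myeloid, erythroid, platelet and NK cell sums of all libraries, and SFR KO 1 the highest of its group in each. In wildtype 1, 2 and 3 the myeloid sums were 5037, 1357 and 1103, and the erythroid sums 7886, 1624 and 1435.

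Expression was tested for 14 of the 37 transcripts, those whose mean reached 10 normalized reads, in a limma fit over 13562 genes. All 14 had a log2 difference above 0, with a median of 0.52, where 49.3% of all tested genes lay above 0 and their median was -0.00297. With the GC trend of each library removed, 13 of the 14 lay above 0, with a median of 0.32, and mt-Nd3 was at -0.26. Both ribosomal RNAs rose (adjusted p under the threshold of 0.05), and the 12 other tested members missed it. The share of all tested genes called higher was 0.155%. The groups did not overlap for 10 of the 14, all higher in SFR KO, where 9.78% of tested genes had groups that did not overlap in that direction. At an unadjusted p under 0.05, 11 members were higher, against 7.04% of tested genes. These members share a genome and long precursors, so they are not independent of each other.

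The ribosomal RNAs form the core of the mitochondrial ribosome. The 12S ribosomal RNA mt-Rnr1, of its small subunit, had 22083.7, 21589 and 19590.2 normalized reads in SFR KO 1, 2 and 3, against 14087, 17160.3 and 14094 in wildtype 1, 2 and 3. Each SFR KO library exceeded every wildtype library. The log2 difference was 0.48 ± 0.08 (SE), 1.40-fold (limma adjusted p = 0.0486). The 16S ribosomal RNA mt-Rnr2, of the large subunit, had 54660.4, 50438 and 49115 normalized reads in SFR KO 1, 2 and 3, against 35965, 39877 and 33651 in wildtype 1, 2 and 3. The groups did not overlap here either. The log2 difference was 0.50 ± 0.07 (SE), 1.41-fold (limma adjusted p = 0.0322). On the recovered reads edgeR called mt-Rnr2 (adjusted p = 0.0363) and not mt-Rnr1 (0.0531), where it called 0.0811% of tested genes higher. DESeq2 called both and also mt-Co1, where it called 1.36% of tested genes higher. The same 3 have an adjusted p under 0.05 in the authors' deposited table, as do 3.66% of the genes tested here.

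Both calls depended on the set of libraries and on a correction for base composition. Without SFR KO 2 the adjusted p was 0.177 for mt-Rnr2 and 0.214 for mt-Rnr1, without SFR KO 3 it was 0.062 and 0.0712, without wildtype 1 it was 0.123 and 0.141, and without wildtype 3 it was 0.107 and 0.142. In those fits limma called 0.0295%, 0.0442%, 0.0369% and 0.0442% of tested genes higher. With each library's trend across GC content removed, the log2 difference was 0.26 ± 0.05 for mt-Rnr2 and 0.26 ± 0.07 for mt-Rnr1, and both missed the threshold (limma adjusted p = 0.112 and 0.164). The 8 abundant mitochondrial transcripts had a GC content of 35.4% to 39.9%, against a median of 49.4% over tested genes.

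The 6 abundant messengers had differences of the same size as the ribosomal RNAs but a wider spread in wildtype. The most abundant was mt-Co1, the catalytic subunit of cytochrome c oxidase (complex IV). It had 315722, 316865 and 325208 normalized reads in SFR KO 1, 2 and 3, against 188771, 270804 and 197238 in wildtype 1, 2 and 3. Wildtype 2 lay between the other wildtype libraries and the SFR KO libraries. The log2 difference was 0.56 ± 0.12 (SE; limma adjusted p = 0.0884, DESeq2 0.037), and the authors' deposited table gives an adjusted p = 0.0387.

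The messenger mt-Cytb encodes cytochrome b, the mitochondrially coded subunit of complex III. It had 136934, 139135 and 135476 normalized reads in SFR KO 1, 2 and 3, against 83589, 124435 and 85288 in wildtype 1, 2 and 3. The same library, wildtype 2, was the highest of its group, still below each SFR KO library. The log2 difference was 0.51 ± 0.13 (SE), which missed the threshold (limma adjusted p = 0.123 or, with edgeR, 0.136).

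Complex I, the NADH dehydrogenase, is represented by 4 of these messengers. The membrane subunit mt-Nd1 had 84494, 87458 and 84329.5 normalized reads in SFR KO 1, 2 and 3, against 51881, 75858 and 52684 in wildtype 1, 2 and 3 (log2 difference 0.53 ± 0.13, limma adjusted p = 0.104). The subunit mt-Nd2 had 34894, 35266 and 34575 in SFR KO 1, 2 and 3, against 22877, 31564 and 20506 in wildtype 1, 2 and 3 (0.51 ± 0.13, limma adjusted p = 0.122). In both, wildtype 2 was again the highest wildtype library and no wildtype value reached an SFR KO value. The proton-pumping subunit mt-Nd4 had 43557, 41897 and 41085 normalized reads in SFR KO 1, 2 and 3, against 24780.0, 37389 and 25740.1 in wildtype 1, 2 and 3 (0.55 ± 0.13, limma adjusted p = 0.104). Its partner mt-Nd5 had 67769.5, 68322 and 67673 in SFR KO 1, 2 and 3, against 41457, 63595 and 42837 in wildtype 1, 2 and 3 (0.49 ± 0.14, limma adjusted p = 0.143). The groups did not overlap for these either. Across the 8 abundant transcripts the log2 difference thus ran from 0.48 to 0.56, or 1.40-fold to 1.48-fold.

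**Figure D2:**
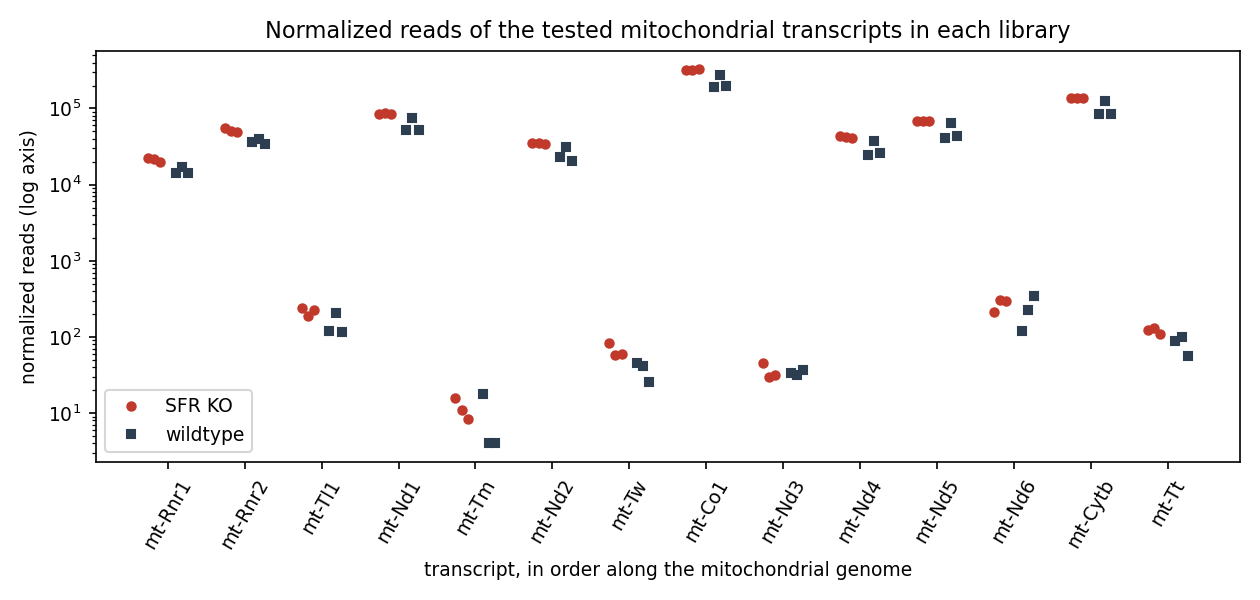
Normalized reads on a log axis for the 14 tested mitochondrial transcripts in order along the genome, with SFR KO libraries as red circles and wildtype libraries as dark squares. For mt-Co1 the SFR KO libraries lie at 315722 to 325208 and the wildtype libraries at 188771 to 270804, with wildtype 2 the highest, a layout shared by the 6 abundant messengers.

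Leaving out wildtype 2 widened the difference and tightened the wildtype group. The log2 differences of the 8 abundant transcripts then ran from 0.56 to 0.74, and all 8 passed the limma threshold, where 0.111% of tested genes were called higher. Without wildtype 1 they ran from 0.38 to 0.49 and without wildtype 3 from 0.38 to 0.50, and no member passed in either fit. Without SFR KO 1 they ran from 0.45 to 0.57 and 3 members passed, mt-Rnr1, mt-Rnr2 and mt-Co1, where 1.58% of tested genes were called higher. With the GC trend removed, the log2 difference of the 6 messengers was between 0.29 ± 0.11 for mt-Nd2 and 0.45 ± 0.13 for mt-Co1, and 0.0517% of all tested genes were then called higher.

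**Figure D3:**
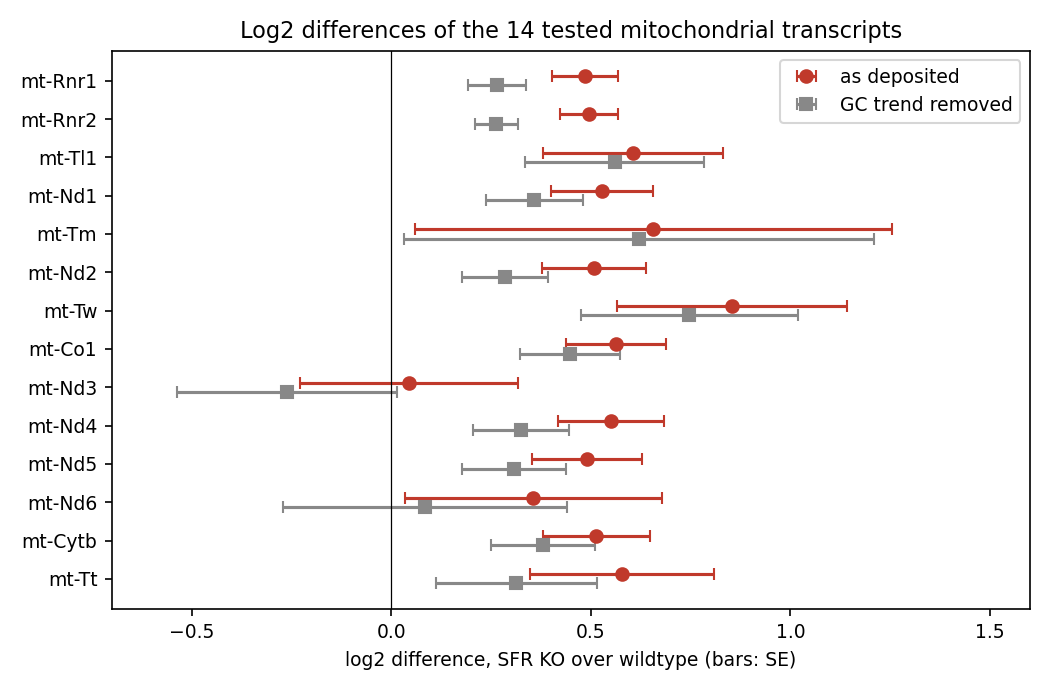
Log2 differences of SFR KO over wildtype with their standard errors for the 14 tested transcripts, from the deposited values (red) and with each library's GC trend removed (grey). The 8 abundant transcripts lie between 0.48 and 0.56 in red, and their grey values are lower, with 0.26 for mt-Rnr2.

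The make-up of the mitochondrial reads differed little between genotypes. Messengers took 89.9%, 90.5% and 90.9% of the mitochondrial reads in SFR KO 1, 2 and 3, and 89.1%, 91.3% and 89.9% in wildtype 1, 2 and 3. Ribosomal RNAs took 10.1%, 9.46% and 9.07% in SFR KO 1, 2 and 3, and 10.8%, 8.63% and 10.1% in wildtype 1, 2 and 3. Transfer RNAs took 0.0516% to 0.062% in SFR KO and 0.0451% to 0.0599% in wildtype libraries. Genes of the light strand, the strand with 9 genes, took 0.0293% to 0.0410% in SFR KO and 0.0274% to 0.0744% in wildtype libraries, with wildtype 3 the highest. The groups overlapped in each share, and two-sided exact permutation tests over the 4 shares compared, the light strand share included, gave p-values of 0.5 to 0.9 (0.9 each after Benjamini-Hochberg adjustment). Each of the 8 abundant transcripts kept its share of mitochondrial reads to within 0.966 to 1.02 times, SFR KO over wildtype, with mt-Co1 at 42.0% ± 0.791 of mitochondrial reads in SFR KO and 41.1% ± 0.539 in wildtype libraries (SD, n = 3 each).

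Per length, the levels of the ribosomal and messenger RNAs spanned a wide range. In SFR KO libraries mt-Co1 had 206644 ± 3352 normalized reads per kilobase, mt-Cytb 119914 ± 1610 and mt-Nd1 89266 ± 1840 (SD, n = 3). In wildtype libraries mt-Co1 had 141707 ± 29202, mt-Cytb 85464 ± 20199 and mt-Nd1 62843 ± 14229 (SD, n = 3). These 3 stood in the same order in every library. Then followed mt-Nd5 at 37238 ± 192 in SFR KO and 27026 ± 6799 in wildtype, and mt-Nd2 at 33634 ± 333 in SFR KO and 24068 ± 5609 in wildtype. Next came mt-Rnr2 at 32493 ± 1831 in SFR KO and 23071 ± 1989 in wildtype, and mt-Nd4 at 30609.5 ± 914 in SFR KO and 21265 ± 5094 in wildtype. Among SFR KO libraries the ranges of mt-Nd2 and mt-Rnr2, and of mt-Rnr2 and mt-Nd4, overlapped. Among wildtype libraries the ranges of mt-Nd5, mt-Nd2, mt-Rnr2 and mt-Nd4 overlapped. Within every library, however, mt-Nd5 exceeded mt-Nd2 and mt-Nd2 exceeded mt-Nd4. Only the place of mt-Rnr2 among them varied. It stood above mt-Nd2 in SFR KO 1, wildtype 1 and wildtype 3, and below mt-Nd4 in wildtype 2. The 12S RNA mt-Rnr1 followed at 22081 ± 1382 in SFR KO and 15826 ± 1856 in wildtype. Part of the sequence of mt-Co1 and mt-Nd4 also occurs in nuclear genes, as described below, and their levels rest on the whole annotated length.

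Of the 37 genes, 28 lie on one strand and 9 on the other, here called the light strand genes. The light strand messenger is mt-Nd6, a complex I subunit. It had 213.8, 308.7 and 295.0 normalized reads in SFR KO 1, 2 and 3, against 120.8, 224.6 and 341.3 in wildtype 1, 2 and 3. The groups overlapped, and the highest value was in wildtype 3. The log2 difference was 0.36 ± 0.32 (SE; limma adjusted p = 0.643), and it was -0.04 without wildtype 1. Per length mt-Nd6 stood at 525.1 ± 98.8 normalized reads per kilobase in SFR KO and 441 ± 213 in wildtype libraries (SD, n = 3). The sources used here do not say whether reads were counted by strand, and mt-Nd6 overlaps mt-Nd5 on the opposite strand by 14 bases. The other 8 light strand genes are transfer RNAs, with means of at most 4.11 normalized reads, and 3 of them had none.

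Of the 22 transfer RNAs, which carry amino acids to the mitochondrial ribosome and mark the cut sites of the precursors, 4 passed the filter on low values. Shown are the sequences of the 3 with most reads, whose values below exceed those of the rest of the class. They are given 5′ to 3′ as DNA from the GENCODE M21 transcripts on GRCm38, with the anticodon in capitals. Their positions on the plus strand of the mitochondrial genome are chrM:2676-2750 for mt-Tl1 (leucine), chrM:15289-15355 for mt-Tt (threonine) and chrM:4950-5016 for mt-Tw (tryptophan).
mt-Tl1: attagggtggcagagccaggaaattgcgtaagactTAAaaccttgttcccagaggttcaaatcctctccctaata
mt-Tt: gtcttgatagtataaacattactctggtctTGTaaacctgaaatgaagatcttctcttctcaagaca
mt-Tw: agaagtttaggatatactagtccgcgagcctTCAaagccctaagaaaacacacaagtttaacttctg

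These 3 abut or overlap abundant messengers or ribosomal RNAs on the genome. The leucine transfer RNA mt-Tl1 lies between mt-Rnr2 and mt-Nd1. It had 237.5, 188.3 and 225.7 normalized reads in SFR KO 1, 2 and 3, against 118.0, 206.2 and 116.8 in wildtype 1, 2 and 3 (log2 difference 0.61 ± 0.22, limma adjusted p = 0.234). Here wildtype 2 lay within the SFR KO range. The threonine transfer RNA mt-Tt directly follows mt-Cytb. It had 122.2, 129.2 and 107.7 in SFR KO 1, 2 and 3, against 89.2, 99.5 and 56.9 in wildtype 1, 2 and 3 (0.58 ± 0.23, limma adjusted p = 0.261). The tryptophan transfer RNA mt-Tw overlaps the end of mt-Nd2 by 2 bases. It had 83.8, 58.0 and 59.9 in SFR KO 1, 2 and 3, against 45.5, 41.0 and 25.4 in wildtype 1, 2 and 3 (0.85 ± 0.29, limma adjusted p = 0.205). The groups did not overlap for mt-Tt and mt-Tw. The methionine transfer RNA mt-Tm had 15.8, 10.9 and 8.43 in SFR KO 1, 2 and 3, against 17.7, 4.10 and 4.06 in wildtype 1, 2 and 3, with overlapping groups (0.66 ± 0.60, limma adjusted p = 0.644).

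The other 18 transfer RNAs had means of 0 to 4.11 normalized reads and were not tested. The valine transfer RNA mt-Tv, which lies between the ribosomal RNAs, had 4, 1 and 2 reads in SFR KO 1, 2 and 3 and none in any wildtype library. The proline transfer RNA mt-Tp had 7, 1 and 3 reads in SFR KO 1, 2 and 3 and 4, 1 and 9 in wildtype 1, 2 and 3. No library had more than 2 reads of mt-Ti, mt-Tq, mt-Ta, mt-Te, mt-Ts1, mt-Ts2, mt-Tg or mt-Tr. No read was seen for mt-Tf, mt-Tn, mt-Tc, mt-Ty, mt-Td, mt-Tk, mt-Th and mt-Tl2. A count of 0 allows up to 3 reads, or 2.79 to 3.28 normalized reads in a library, and covers counting error only.

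A run of messengers that code for essential subunits was at or near 0 in every library. The complex IV subunit mt-Co2 had 3, 2 and 0 reads in SFR KO 1, 2 and 3 and 0 in each wildtype library. Its partner mt-Co3 had 0, 1 and 1 reads in SFR KO and 0 in each wildtype library. The ATP synthase subunit mt-Atp6 had 2 reads in SFR KO 1 and 0 elsewhere, and the ATP synthase subunit mt-Atp8 and the complex I subunit mt-Nd4l had no read. The complex I subunit mt-Nd3 had 45.3, 29.6 and 31.8 normalized reads in SFR KO 1, 2 and 3, against 33.4, 31.8 and 36.6 in wildtype 1, 2 and 3. Its groups overlapped, and its log2 difference of 0.04 ± 0.27 (limma adjusted p = 0.959) was the lowest of the tested members. In the main fit no genotype comparison could therefore be made for 5 of the 13 messengers.

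All of these messengers but mt-Atp8 share most of their sequence with annotated nuclear genes. Every stretch of 50 bases of each mitochondrial transcript was looked up, on both strands, in all transcripts of genes outside the mitochondrial genome. All of these windows of mt-Co2 were found there, as were 99.9% of those of mt-Co3, 99.5% of mt-Atp6, 98.8% of mt-Nd4l and 98.0% of mt-Nd3. The share was 62.2% for mt-Nd4 and 51.1% for mt-Co1, 8.19% for mt-Nd2, 7.61% for mt-Nd5 and 1.04% for mt-Rnr2. It was 0% for mt-Rnr1, mt-Nd1, mt-Cytb, mt-Nd6, mt-Atp8 and every transfer RNA. The 5 messengers above 90% had a mean of at most 99.9 normalized reads per kilobase over the 6 libraries. Of the other 10 ribosomal and messenger RNAs, mt-Atp8 had no read, mt-Nd6 had 483 per kilobase and the other 8 had 18954 to 174176 per kilobase.

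**Figure D4:**
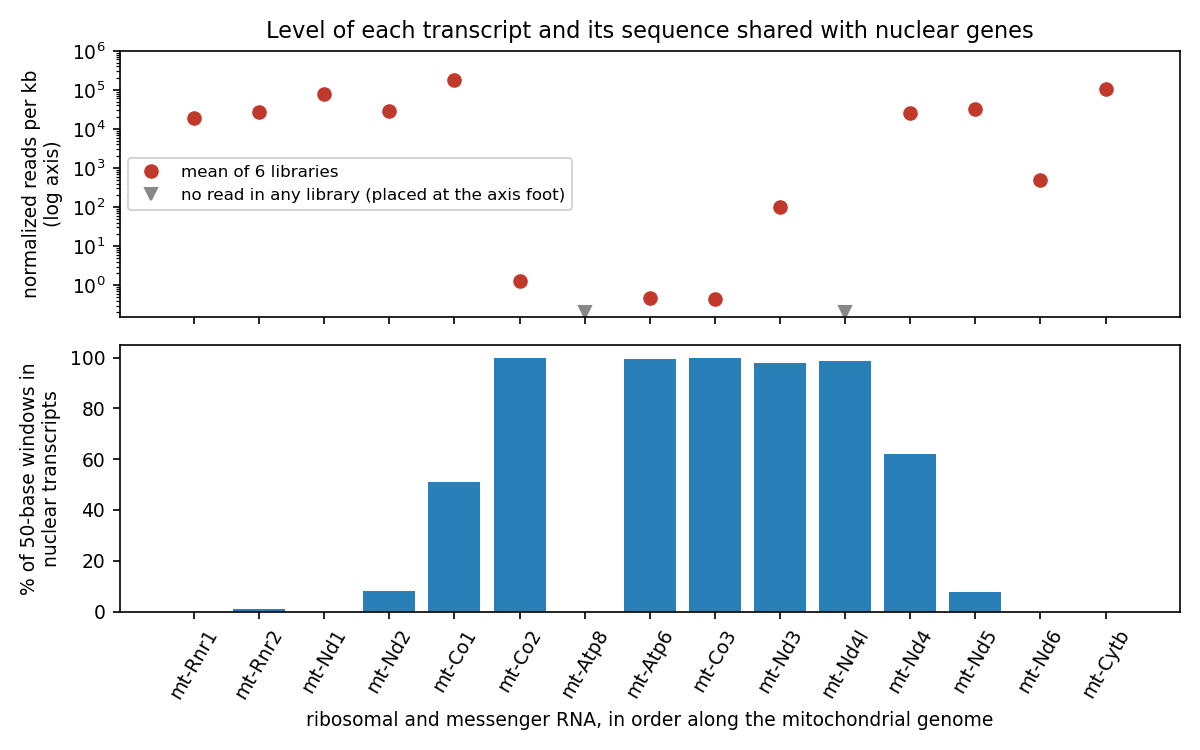
The upper panel gives the mean normalized reads per kilobase over 6 libraries on a log axis for each ribosomal and messenger RNA in genome order, with triangles for transcripts without a read. The lower panel gives the percentage of their 50-base windows found in transcripts of nuclear genes. The messengers at 98.0% to 100% in the lower panel have at most 99.9 reads per kilobase in the upper panel.

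Of the nuclear genes with shared windows, 7 are pseudogenes that lie side by side on chromosome 1. The matching interval runs on the mitochondrial genome from position 6394, within mt-Co1, to position 11042, within mt-Nd4, and the copies lie on the minus strand of chromosome 1 from 24611535 to 24616184 (GRCm38, GENCODE M21). Their order is the same and 5 copies keep the same spacing, while the other 2 are offset by 1 base. The identical run was 479 bases for mt-Co1 and Gm29216, and 681 bases, the whole of the pseudogene, for mt-Co2 and Gm28661. It was 876 bases for mt-Nd4 and Gm28439. Sequence between the annotated copies was not examined. Of the 11 members wholly inside this interval, 1 had a mean of at least 10 normalized reads, against 11 of the 24 wholly outside it. Inside it lie mt-Atp8, which no annotated nuclear transcript matched, and 5 transfer RNAs with means of at most 0.312 normalized reads.

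A part of mt-Co2 and its copies is printed to show how little separates them. The mt-Co2 stretch lies at chrM:7233-7322 on the plus strand, that of Gm28661 at chr1:24615256-24615345 on the minus strand and that of Gm13341 at chr2:22587653-22587742 on the minus strand (GRCm38). Capitals mark bases that differ from mt-Co2.
mt-Co2: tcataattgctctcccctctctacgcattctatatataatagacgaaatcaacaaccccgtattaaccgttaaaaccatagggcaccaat
Gm28661: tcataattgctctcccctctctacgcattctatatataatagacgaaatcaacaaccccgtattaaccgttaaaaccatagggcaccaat
Gm13341: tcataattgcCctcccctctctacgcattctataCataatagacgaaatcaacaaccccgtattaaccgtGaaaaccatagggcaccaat

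The chromosome 1 copy did not differ from mt-Co2 in this stretch, and the chromosome 2 copy differed by T231C, T255C and T291G, counted from 1 at the first base of mt-Co2. The pseudogenes themselves had few reads. Gm28661, under the filter and not tested, had 0.985, 1.09 and 1.87 normalized reads in SFR KO 1, 2 and 3. It had 4.65, 6.15 and 4.06 in wildtype 1, 2 and 3, the direction opposite to that of the tested copies below. Of the 15 nuclear genes with a shared window, 3 could be tested. Gm13340, a copy of mt-Co1 on chromosome 2 that matched 97.6% of its bases, had 71.9, 69.0 and 86.2 normalized reads in SFR KO 1, 2 and 3, against 48.3, 61.5 and 56.9 in wildtype 1, 2 and 3 (log2 difference 0.44 ± 0.21, limma adjusted p = 0.349). Gm13341 had 19.7, 21.9 and 18.7 in SFR KO 1, 2 and 3, against 11.1, 12.3 and 12.2 in wildtype 1, 2 and 3 (0.71 ± 0.33, limma adjusted p = 0.339). Gm10925, the chromosome 1 copy of mt-Atp6, had 27.6, 10.9 and 10.3 in SFR KO 1, 2 and 3, against 4.65, 10.3 and 6.09 in wildtype 1, 2 and 3 (1.03 ± 0.52, limma adjusted p = 0.372). None passed the threshold, and values of genes that share sequence are uncertain, because the sources used here do not say how reads that match several places were handled. The part that shared sequence played in the low counts was not tested.

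Nuclear genes that serve the mitochondrion were set beside its transcripts in 8 lists. Among the 170 genes tested, limma and edgeR called 0. At an unadjusted p under 0.05, limma had 7 higher and 15 lower. DESeq2 called 2 higher, Alkbh1 and Rexo2, and 2 lower, Polrmt and Pprc1. Over all 13562 tested genes, limma called 0.465% (0.155% higher, 0.31% lower), edgeR 0.221% (0.14% lower) and DESeq2 3.56% (2.2% lower), and 9.07% were lower and 7.04% higher at an unadjusted p under 0.05. The median log2 difference was -0.02 over the 8 lists and between -0.07 and 0.04 in each of them.

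Genes of mitochondrial DNA maintenance and transcription had a median of -0.02 over 20 members. The mitochondrial RNA polymerase gene Polrmt had 1003, 1086 and 1015 normalized reads in SFR KO 1, 2 and 3, against 1227, 1364 and 1459 in wildtype 1, 2 and 3. Its groups did not overlap, in the direction opposite to that of the mitochondrial transcripts. Groups did not overlap in that direction for 20 of the 170 tested list genes and for 11.9% of all tested genes. The log2 difference was -0.38 ± 0.08 (SE), which missed limma's threshold (adjusted p = 0.0659) and passed that of DESeq2 (0.00365). The termination factor gene Mterf3 stood at 0.24 ± 0.09 (limma adjusted p = 0.22) and the DNA polymerase gene Polg at -0.16 ± 0.06 (limma adjusted p = 0.245).

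Genes of mitochondrial RNA processing and decay had a median of -0.04 over 37 members. Rexo2, an exonuclease that degrades short RNAs, had 2673, 2796 and 3073 normalized reads in SFR KO 1, 2 and 3, against 2054, 2267 and 2404 in wildtype 1, 2 and 3 (log2 difference 0.35 ± 0.07, limma adjusted p = 0.0804, DESeq2 0.00207). Alkbh1, an enzyme that modifies transfer RNA, had 738.0, 734.6 and 763.3 in SFR KO 1, 2 and 3, against 546.3, 575.4 and 609.4 in wildtype 1, 2 and 3 (0.37 ± 0.08, limma adjusted p = 0.0701, DESeq2 0.0152). For both the groups did not overlap, with SFR KO higher, as was so for 7 of the 170 tested list genes and 9.78% of all tested genes. Cdk5rap1, which modifies mitochondrial transfer RNA, stood at -0.62 ± 0.20 (limma adjusted p = 0.193).

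The transfer RNA synthetase list had a median of -0.04 over 22 members, and its members with the smallest p were Ears2 at -0.38 ± 0.10, Cars2 at -0.25 ± 0.09 and Vars2 at -0.19 ± 0.08 (limma adjusted p = 0.137, 0.213 and 0.302). The translation factor list had a median of -0.04 over 19 members, with the elongation factor gene Tufm at -0.13 ± 0.06, the initiation factor gene Mtif3 at -0.15 ± 0.08 and Noa1 at -0.12 ± 0.07 (limma adjusted p = 0.317, 0.414 and 0.426). The list of biogenesis regulators had a median of -0.07 over 10 tested members. Among them the coactivator gene Pprc1 stood at -0.29 ± 0.08 (limma adjusted p = 0.134, DESeq2 0.0481), Tfeb, a regulator of lysosomal genes, at -0.21 ± 0.07 and the nuclear receptor gene Esrra at 0.23 ± 0.09 (limma adjusted p = 0.209 and 0.236).

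Nuclear-coded subunits of the respiratory complexes and ATP synthase had a median of 0.04 over 26 members, 20 of them (76.9%) above 0. In each of the other lists 20% to 45% of tested members lay above 0. The share above 0 was 38.8% over the 8 lists and 49.3% over all tested genes. Their differences ran from -0.03 to 0.20, below the 0.48 to 0.56 of the 8 abundant mitochondrial transcripts. The complex IV subunit gene Cox7c had 1720.4, 1713 and 1659 normalized reads in SFR KO 1, 2 and 3, against 1476, 1401 and 1547 in wildtype 1, 2 and 3 (0.20 ± 0.06, limma adjusted p = 0.154). Sdhc, of complex II, stood at 0.15 ± 0.07 and the ATP synthase subunit gene Atp5c1 at 0.06 ± 0.05 (limma adjusted p = 0.349 and 0.631). A difference between the mitochondrial and the nuclear subunits was not tested.

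Genes of general mitochondrial content had a median of -0.03 over 17 members. The chaperone gene Hspd1 stood at -0.18 ± 0.07, the import pore gene Tomm40 at -0.13 ± 0.05 and the outer membrane channel gene Vdac2 at 0.09 ± 0.06 (limma adjusted p = 0.26, 0.273 and 0.468). Genes of mitochondrial stress and quality control had a median of -0.07 over 19 tested members. The protease gene Oma1 stood at -0.26 ± 0.08, and the stress-induced transcription factor genes Atf5 and Atf4 at -0.35 ± 0.10 and 0.15 ± 0.05 (limma adjusted p = 0.146, 0.155 and 0.22).

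**Figure D5:**
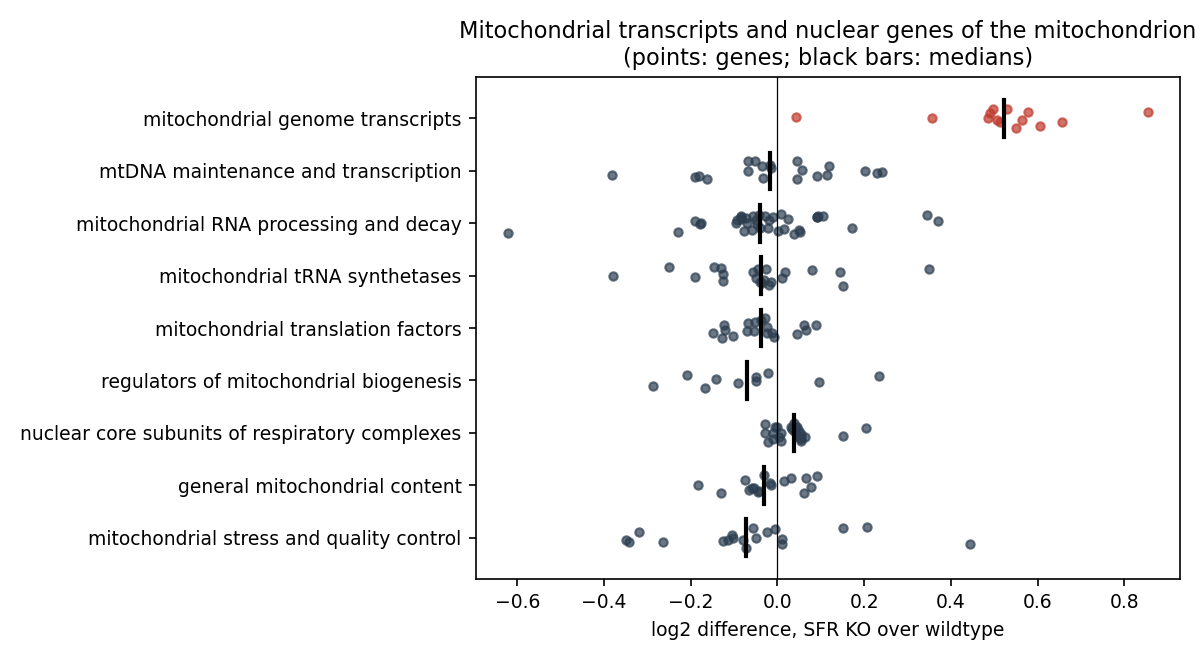
Log2 differences of SFR KO over wildtype for the tested mitochondrial transcripts (top, red) and for the members of 8 lists of nuclear genes (dark), with each list's median as a black bar. The mitochondrial transcripts have a median of 0.52, and the nuclear lists have medians between -0.07 and 0.04.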

How the data were processed

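The submitters' processing notes name GRCm38, STAR 2.5, featureCounts 1.5 and DESeq2 1.14.1, without the annotation release or the counting options. For each gene the authors deposited size-factor-normalized read counts per library (a signal), their mean, a log2 fold change with an error, a score for the test statistic and p-values. Whole reads were recovered from the deposited signal by division (100% of values whole within a relative 1e-06).

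Genes whose mean reached 10 were tested in R 4.3.3 with limma 3.58.1 (lmFit, trended eBayes) after taking log2(normalized count + 1), two-sided, Benjamini-Hochberg adjusted over 13562 genes. Fold changes are on this scale, where a larger pseudocount draws the difference of a low gene toward 0 (mt-Tm was at 0.71 with 0.5 added, 0.66 with 1 and 0.42 with 5). It can still exceed that of a count model (mt-Tm was at 0.42 and mt-Nd6 at 0.26 with edgeR, against 0.36 for mt-Nd6 here). Shares of reads were compared by exact permutation tests. GC content, lengths and sequences came from the longest GENCODE M21 transcript, which matched 99.5% of genes. The GC correction removed a natural spline with 4 degrees of freedom per library, fitted over nuclear tested genes. As alternatives, the pseudocount, filter and scaling were changed, each library was dropped in turn, sample weights or a robust prior were used, and edgeR 4.0.16 and DESeq2 1.42.0 were run on the recovered reads. The limma step was tested on simulated counts with known changes.

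Replicates were numbered in accession order within the genotypes given by the labels, which give no batch. Members, lists and tests were chosen with earlier results of these data known. Every member with a mean of at least 10 was named with its values, with up to 3 genes of each nuclear list by smallest p and the 3 pseudogene copies with the highest mean. Intervals from counts of 0 cover counting error only.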

Additional observations from a re-analysis of the deposited data

How the results depend on the processing

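All 8 abundant transcripts kept a log2 difference above 0 under each of the 20 alternatives. mt-Rnr2 passed the threshold in 14 of them (adjusted p from 4.5e-10 to 0.177) and mt-Rnr1 in 12 (5.03e-07 to 0.221). The number of mitochondrial transcripts called, 2, was 1 with upper quartile scaling and with edgeR, and 3 with no filter beyond 1 read and with DESeq2. It was 0 with the GC trend or the GC and length trends removed, 7 with array weights and 0 to 8 with 1 library left out. Genes called, 63, were 129 with no filter beyond 1 read, 98 at a minimum mean of 50, 20 with the GC trend or both trends removed, 630 with array weights, 161 with a robust prior, 30 with edgeR, 483 with DESeq2 and 11 to 480 with 1 library left out. Genes called in the nuclear lists, 0, were 5 with array weights, 2 with a robust prior, 4 with DESeq2 and 0 to 2 with 1 library left out. The cause of these shifts was not tested, beyond fewer libraries or genes where the setting itself removes them.

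The low messengers mt-Nd3 and mt-Nd6 changed sign. mt-Nd3 was at -0.26 with the GC trend removed, -0.37 with both trends removed, -0.10 with array weights, -0.14 without SFR KO 1 and -0.00053 without wildtype 2, and ran from -0.14 to 0.16 with 1 library left out. mt-Nd6 was at -0.0031 with both trends removed and -0.0413 without wildtype 1, and ran from -0.0413 to 0.704 with 1 library left out. The difference in mitochondrial share of reads, 0.738 percentage points, was 0.671 without the ribosomal RNAs, 0.757 over protein-coding genes, 0.739 with nuclear copies added and 0.633 to 0.938 with 1 library left out. The differences in make-up of the mitochondrial reads changed sign when 1 library was left out, with ranges in percentage points of -0.910 to 0.173 for ribosomal RNA, -0.179 to 0.907 for messenger RNA, -0.000898 to 0.00648 for transfer RNA and -0.0177 to 0.00573 for the light strand. No paired analysis was possible because the labels give no replicate numbers that the genotypes share. The 23 members under the filter, of which 10 had no read, were not compared between genotypes in the main fit. With no filter beyond 1 read, 27 members entered the fit and 22 of them lay above 0. The 3 called there were mt-Rnr2, mt-Rnr1 and mt-Co1, where 47 of 24646 genes were called higher. The part of depth in the low counts of members under the filter was not tested.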
